A study of Mus musculus with 11 samples.

Results

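The CNC transcription factors Nfe2, Nfe2l1, Nfe2l2 (which encodes NRF2), Nfe2l3, Bach1 and Bach2, the small Maf factors Mafg and Mafk and the NRF2 inhibitor Keap1 were followed in alveolar macrophages of newborn mice exposed to high oxygen. These 9 genes were chosen by name with their hyperoxia and normoxia values already known, so their differences between hyperoxia and normoxia are described here without a test. They are 9 of the 57180 gene identifiers in the count table, and all 9 are among the 19948 genes that passed the filter on low counts, Nfe2l3 with only 1 to 22 counts a library.

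Alveolar macrophages are the phagocytes of the air spaces. They were sorted by flow cytometry from homogenised lungs of C57BL/6 WT pups on postnatal day 7 and measured by bulk RNA-seq in 11 libraries. The hyperoxia pups had breathed 95% oxygen from postnatal day 1 to day 5, and the normoxia pups had not. There were 3 hyperoxia female (HF1 to HF3), 2 hyperoxia male (HM2 and HM3), 3 normoxia female (NF1 to NF3) and 3 normoxia male libraries (NM1 to NM3). All pups share strain, genotype and age. Nothing in the labels tells separate animals from pools among the replicates. The p-values below therefore measure only how far these libraries spread, and that spread may be technical. In bulk samples, fewer cells of a type and less RNA per cell cannot be told apart.

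CNC factors are basic leucine zipper proteins that bind DNA as pairs with a small Maf protein, at antioxidant response elements and related Maf sites. NRF2 is kept low by KEAP1, the adaptor that brings it to a CUL3 ubiquitin ligase, and oxidants that modify KEAP1 let the NRF2 protein build up and switch on glutathione, quinone and haem detoxifying genes. This control acts on the protein, and the level of the Nfe2l2 transcript does not report it. BACH1 and BACH2 occupy the same kind of site as repressors, and small Maf proteins, which have no activation domain, give either kind of partner its DNA contact. In the lung, mice without NRF2 are known to be more sensitive to hyperoxia.

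Promoters of 3 members, from 250 bases before to 50 after the transcription start, held a match to the antioxidant response element core TGACNNNGC on either strand. They are printed 5′ to 3′ on the gene's strand, because they are the members whose own start regions carry letters of the site that these factors bind. The capitals mark the match. The sequences are from the RefSeq table of GRCm38.p6, looked up by symbol, whereas the submitters' processing notes name mm39 for the counts. Nfe2l2 lies at chr2:75704614-75704913 on the minus strand, Mafg at chr11:120633498-120633797 on the minus strand and Mafk at chr5:139791286-139791585 on the plus strand.
Nfe2l2 promoter: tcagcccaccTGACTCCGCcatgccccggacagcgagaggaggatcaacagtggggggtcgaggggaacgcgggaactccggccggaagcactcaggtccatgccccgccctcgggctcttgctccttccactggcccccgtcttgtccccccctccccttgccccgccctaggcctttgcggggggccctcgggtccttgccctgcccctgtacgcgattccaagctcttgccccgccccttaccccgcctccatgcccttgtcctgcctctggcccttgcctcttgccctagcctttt
Mafg promoter: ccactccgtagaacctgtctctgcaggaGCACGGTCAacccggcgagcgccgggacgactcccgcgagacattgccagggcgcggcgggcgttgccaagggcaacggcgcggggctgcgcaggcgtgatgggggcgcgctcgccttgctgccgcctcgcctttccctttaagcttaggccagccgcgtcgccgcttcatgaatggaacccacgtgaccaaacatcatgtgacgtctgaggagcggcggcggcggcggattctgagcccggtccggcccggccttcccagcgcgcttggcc
Mafk promoter: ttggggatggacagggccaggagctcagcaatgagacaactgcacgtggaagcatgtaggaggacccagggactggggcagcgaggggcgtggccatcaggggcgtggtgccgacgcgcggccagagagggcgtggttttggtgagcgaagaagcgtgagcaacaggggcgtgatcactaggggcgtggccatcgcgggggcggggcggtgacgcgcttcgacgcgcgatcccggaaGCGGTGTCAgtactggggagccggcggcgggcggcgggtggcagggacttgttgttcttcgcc
The Nfe2l2 match runs from base -240 to base -232 before the start and reads TGACTCCGC on the gene's own strand. The Mafg match, from -222 to -214, and the Mafk match, from -13 to -5, lie on the opposite strand and read GCACGGTCA and GCGGTGTCA on the printed one. In all, 8 of the 9 members had a window, 12 windows together, and no member window held the NF-E2 site GCTGAGTCA, whose reverse complement is also a match to the first motif. Of all 32851 promoter windows in the table, 12.4% held the first motif and 0.454% the second. Counted by gene, as the members are here, 14% of 27025 genes held the first and 0.503% the second. Nfe2 was not among the genes with a window. A match describes these letters and does not show binding.

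The libraries held 18087948 (NM3) to 32579468 (NF1) counts, and 26856 to 35530 identifiers had at least 1 count, with most of them in HF2, HF3, NF3 and NM3. The floor of 3 counts stood at 0.0880 to 0.160 CPM (counts relative to the TMM-scaled library size), covering counting error only. The label of the cells was checked against 17 alveolar macrophage markers. All were detected, and their summed level was 7639 to 10954 CPM in the hyperoxia libraries and 6930 to 12558 CPM in the normoxia libraries.

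Nfe2 (ENSMUSG00000058794) was the member that stood apart by oxygen. It encodes the p45 subunit of NF-E2, known for platelet formation in megakaryocytes and for globin control in erythroid cells. It stood at 20.5, 25.4 and 17.7 CPM in HF1 to HF3 and at 29.6 and 20.6 CPM in HM2 and HM3, against 16.4, 12.8 and 12.2 CPM in NF1 to NF3 and 10.8, 11.4 and 9.03 CPM in NM1 to NM3. All 5 hyperoxia libraries lay above all 6 normoxia libraries, and the nearest were HF3 and NF1. For this separation and those of other genes below, the share of all genes that separate as fully was not counted. These levels rest on 515 to 865 counts a library in hyperoxia and 175 to 517 in normoxia. The means were 22.7 ± 4.71 CPM in hyperoxia (SD, n = 5) and 12.1 ± 2.49 CPM in normoxia (SD, n = 6), a log2 fold change of 0.94 ± 0.16 (SE) averaged over the sexes. Within the sexes the log2 fold change was 0.62 ± 0.22 in females and 1.27 ± 0.24 in males (SE). By edgeR no member was among the genes past the threshold in either sex, where 0.0401% of all genes passed in females and 0.0401% in males. DESeq2 had 1 member past it in males, beside 91 of all 19948 genes. In females it had 0 members past it, beside 96 of all 19948 genes.

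Nfe2 was the 1 member of 9 among the genes past the threshold of edgeR's quasi-likelihood test (adjusted p under 0.05) in this contrast, where 0.707% of all genes tested passed and 0.541% passed as higher. Since the rule used this contrast, the count is a description only. Without HM2, the highest library, the Nfe2 log2 fold change was 0.81 and the gene was no longer among those past the threshold. The same held without HF2, HF3, NF3 and NM3, the 4 libraries with most identifiers, at 0.84.

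**Figure D1:**
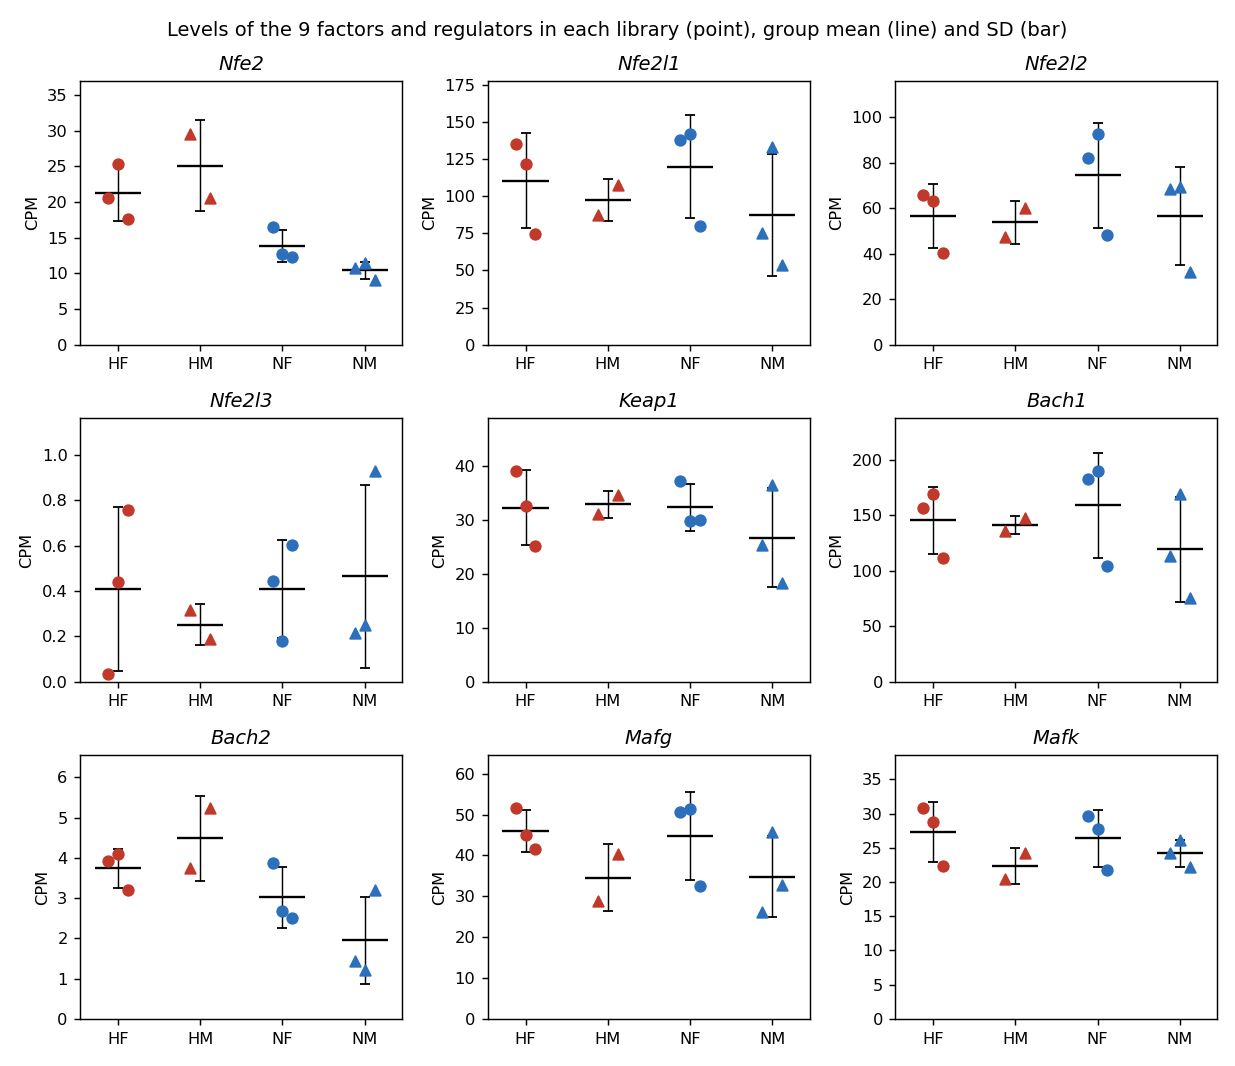
Level of each of the 9 genes in CPM (vertical axes) in every library, by group from hyperoxia female to normoxia male. Nfe2 lies at 17.7 to 29.6 CPM in the 5 hyperoxia libraries and at 9.03 to 16.4 CPM in the 6 normoxia libraries, while the ranges of the other 8 genes overlap.

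Nfe2l1 (ENSMUSG00000038615) encodes NRF1, a CNC factor held in the endoplasmic reticulum membrane that is cut and released to drive proteasome genes. It stood at 135, 121 and 74.6 CPM in HF1 to HF3 and at 87.2 and 107 CPM in HM2 and HM3, against 137, 142 and 80.1 CPM in NF1 to NF3 and 75.04, 133 and 53.8 CPM in NM1 to NM3. The groups overlapped throughout, and the lowest library of each female group was replicate 3. The means were 105 ± 24.6 CPM in hyperoxia (SD, n = 5) and 104 ± 38.3 CPM in normoxia (SD, n = 6). The log2 fold change was 0.02 ± 0.24 (SE), and the range of 2 SE to either side, from -0.47 to 0.51, leaves room for differences of either sign.

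Nfe2l2 (ENSMUSG00000015839), which encodes NRF2, stood at 65.8, 63.3 and 40.3 CPM in HF1 to HF3 and at 47.1 and 60.2 CPM in HM2 and HM3, against 82.1, 92.7 and 48.3 CPM in NF1 to NF3 and 68.4, 69.4 and 31.8 CPM in NM1 to NM3. The 4 highest libraries were normoxic, and so was the lowest, so the groups overlapped. The means were 55.4 ± 11.1 CPM in hyperoxia (SD, n = 5) and 65.5 ± 22.2 CPM in normoxia (SD, n = 6), with a log2 fold change of -0.24 ± 0.23 (SE). It was -0.40 ± 0.31 in females and -0.08 ± 0.35 in males (SE). Nfe2l3 (ENSMUSG00000029832), the membrane-bound relative of NRF1, had 1 count in HF1, under the floor, 15 and 22 counts in HF2 and HF3, 8 and 5 in HM2 and HM3, 14, 5 and 14 in NF1 to NF3, and 4, 6 and 18 in NM1 to NM3. At this depth no difference of Nfe2l3 was detectable.

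Bach1 (ENSMUSG00000025612), the repressor of haem oxygenase that haem releases from DNA, stood at 156, 169 and 112 CPM in HF1 to HF3 and at 136 and 147 CPM in HM2 and HM3, against 183, 190 and 105 CPM in NF1 to NF3 and 113, 169 and 75.8 CPM in NM1 to NM3. The hyperoxia range lay inside the normoxia range. Its log2 fold change was 0.06 ± 0.23 (SE). Bach2 (ENSMUSG00000040270), best known as a repressor in B and T lymphocytes, had 27 to 140 counts a library and stood at 3.91, 4.11 and 3.19 CPM in HF1 to HF3 and at 3.74 and 5.24 CPM in HM2 and HM3, against 3.88, 2.67 and 2.5 CPM in NF1 to NF3 and 1.44, 1.21 and 3.20 CPM in NM1 to NM3. HM2 and HM3 lay above all 3 normoxia males, with NM1 and NM2 lowest, while the female groups overlapped. The log2 fold change of Bach2 was 0.76 ± 0.27 averaged over the sexes, 0.31 ± 0.36 in females and 1.21 ± 0.41 in males (SE). The summed B cell markers were at 8.75 to 12.7 CPM in hyperoxia and 6.17 to 13.2 CPM in normoxia, the T cell markers at 4.44 to 12.9 CPM in hyperoxia and 4.83 to 10.4 CPM in normoxia, and their part in the Bach2 level was not tested.

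Keap1 (ENSMUSG00000003308) stood at 39.2, 32.6 and 25.3 CPM in HF1 to HF3 and at 31.2 and 34.7 CPM in HM2 and HM3, against 37.4, 29.8 and 30.1 CPM in NF1 to NF3 and 25.5, 36.6 and 18.3 CPM in NM1 to NM3. The groups overlapped, with NM3 lowest, and the log2 fold change was 0.15 ± 0.18 (SE). The small Maf partners stood close together in the oxygen groups, at log2 fold changes of 0.01 ± 0.19 for Mafg (ENSMUSG00000051510) and -0.03 ± 0.15 for Mafk (ENSMUSG00000018143) (SE). Mafg ranged over 28.8 to 51.6 CPM in hyperoxia and 26.0 to 51.4 CPM in normoxia. Mafk ranged over 20.5 to 30.8 CPM in hyperoxia and 21.7 to 29.6 CPM in normoxia.

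Over the 9 members, 6 log2 fold changes were above 0 and the median was 0.02, beside -0.03 over all genes tested. With DESeq2's size factors in place of TMM, 4 of 9 were above 0, since Nfe2l1 and Mafg then fell just under it. In the GENCODE M21 annotation, exons of Keap1 share 10.9% of their bases with an antisense gene, those of Bach2 5.4%, those of Mafk 4.33% with Tmem184a on the opposite strand and those of Mafg 2.21% with Sirt7 on the same strand. Whether the counting used strand is not given in the sources used here, so reads of these stretches cannot be told apart.

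**Figure D2:**
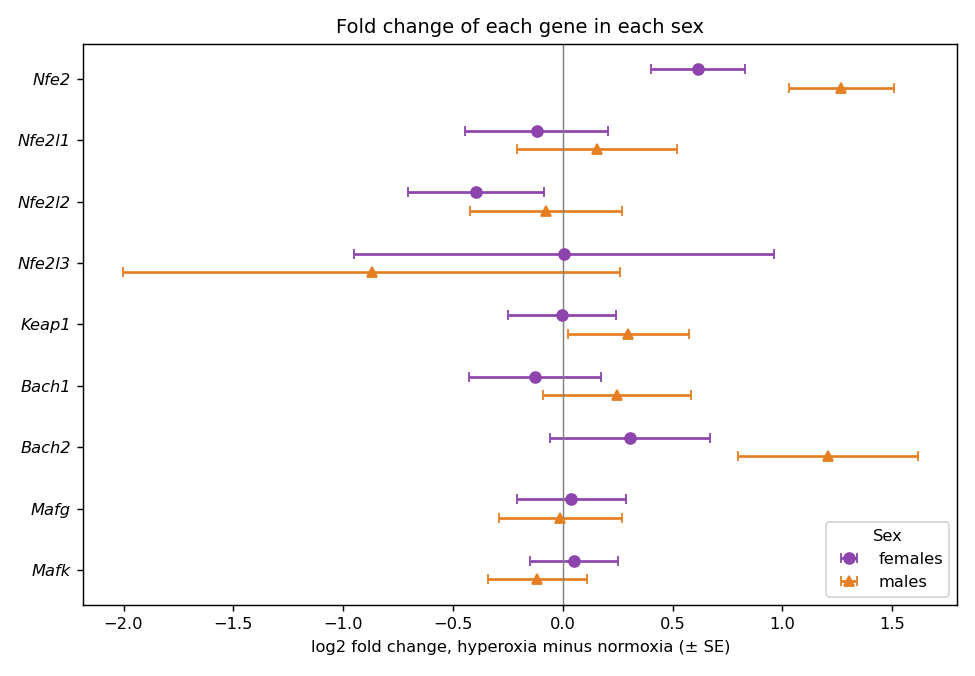
Log2 fold change of each gene, hyperoxia minus normoxia (horizontal axis), in females (circles) and males (triangles), with bars of 1 SE. Nfe2 is at 0.62 in females and 1.27 in males and Bach2 at 0.31 in females and 1.21 in males. Nfe2l3 has the widest bars.

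The balance among the CNC factors was compared within each library on counts per kilobase of exon, which does not depend on library scaling. Nfe2 made up 9.19% to 16.3% of the summed level of the 6 CNC genes in the hyperoxia libraries and 4.98% to 8.84% in the normoxia libraries, with no overlap. Nfe2l2 made up 20.4% to 23.7% in hyperoxia and 24.5% to 33.4% in normoxia. The shares sum to a fixed total, so a higher share of Nfe2 lowers the others by construction. With Nfe2 left out of the sum, a choice made after seeing the data, the share of Nfe2l2 was 24.4% to 26.4% in hyperoxia and 26.0% to 35.8% in normoxia, and the ranges overlapped. The shares of Nfe2l1, at 26.3% to 33.2% in hyperoxia and 25.6% to 32.98% in normoxia, and of Bach1, at 33.9% to 37.0% in hyperoxia and 33.9% to 36.9% in normoxia, overlapped between hyperoxia and normoxia.

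Per count, the ratio of Nfe2 to Nfe2l2 was 0.312 to 0.627 in hyperoxia, with a median of 0.401, and 0.138 to 0.284 in normoxia, with a median of 0.182. The ratio of the activator Nfe2l2 to the repressor Bach1 was 0.347 to 0.421 in hyperoxia and 0.410 to 0.605 in normoxia, and these ranges overlapped. These ratios use the same values as the choice of the genes and are given without a test.

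On the scale of CPM per kilobase of exon, Bach1 had the highest mean, at 23.3 ± 3.54 in hyperoxia (SD, n = 5) and 22.5 ± 7.68 in normoxia (SD, n = 6). Nfe2l1 followed at 19.3 ± 4.53 in hyperoxia and 19.0 ± 7.04 in normoxia, and Nfe2l2 at 14.6 ± 2.92 in hyperoxia and 17.2 ± 5.85 in normoxia (SD). Bach1 was the highest of the 6 CNC genes on this scale in all 11 libraries. In normoxia each of these 3 means lay within 1 SD of the next, whereas in hyperoxia the means of Nfe2l1 and Nfe2l2 were more than 1 SD apart by either gene's SD. In hyperoxia Nfe2, at 7.61 ± 1.58, stood level with Mafg at 7.38 ± 1.48, Keap1 at 6.95 ± 1.08 and Mafk at 6.49 ± 1.11 (SD, n = 5). In normoxia Nfe2, at 4.05 ± 0.83, was below Mafg at 7.09 ± 1.92, Keap1 at 6.31 ± 1.52 and Mafk at 6.48 ± 0.80 (SD, n = 6). Bach2, at 0.41 ± 0.08 in hyperoxia and 0.25 ± 0.10 in normoxia, and Nfe2l3, at 0.12 ± 0.09 in hyperoxia and 0.15 ± 0.10 in normoxia (SD), were last.

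**Figure D3:**
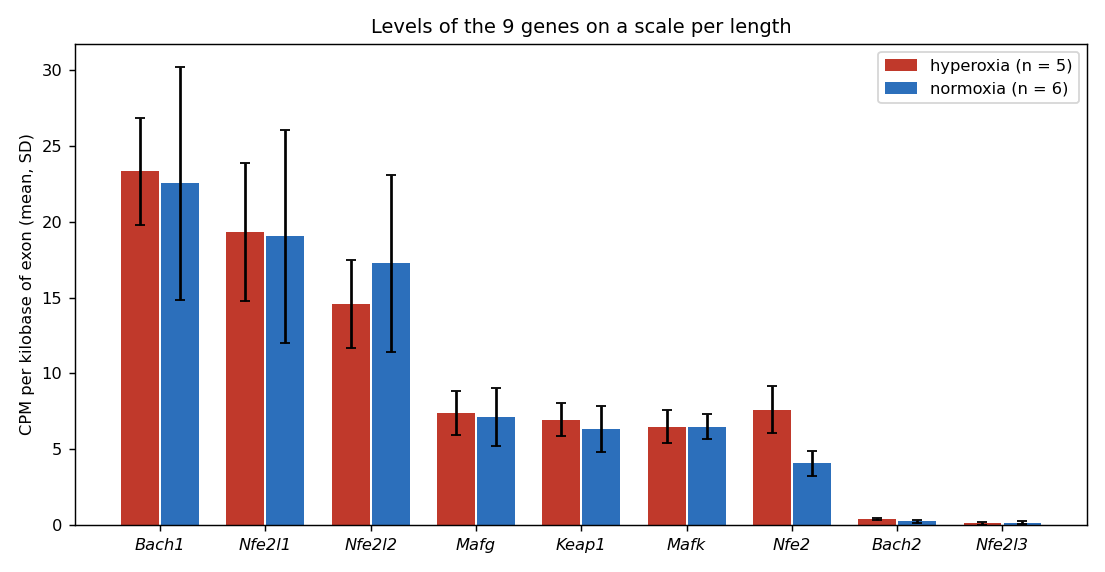
Mean level of the 9 genes in CPM per kilobase of exon (vertical axis, from 0) in hyperoxia (n = 5, left bars) and normoxia (n = 6, right bars), with bars of 1 SD. Bach1, Nfe2l1 and Nfe2l2 are the 3 highest, and Nfe2 is at 7.61 in hyperoxia and 4.05 in normoxia.

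Sex was not used to choose the genes, so the sexes were tested. None of the 9 members differed between females and males by edgeR's quasi-likelihood test, with p adjusted over all genes by the method of Benjamini and Hochberg, and none had an unadjusted p under 0.05 in any of the 4 contrasts that involve sex. DESeq2 called none of them for sex either. Of all genes, 0.0251% passed in each of the 3 sex contrasts and 0% in the interaction, the female response minus the male response. Averaged over oxygen, all 9 were higher in females as point estimates, with a median log2 difference of 0.23 beside 0.01 over all genes. Female libraries held 24146144 to 32579468 counts and male libraries 18087948 to 26757489, and these ranges overlap.

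The female minus male log2 difference of Mafg was 0.39 ± 0.19 averaged over oxygen (SE, edgeR adjusted p = 0.994). In hyperoxia it was 0.41 ± 0.28 (SE, edgeR adjusted p = 1), and Mafg stood at 51.6, 44.9 and 41.6 CPM in the females, all above 28.8 and 40.4 CPM in the males. In normoxia the Nfe2 levels of the 3 females all lay above those of the 3 males, at a log2 difference of 0.41 ± 0.22 (SE, edgeR adjusted p = 0.851). In hyperoxia the Nfe2 difference was -0.24 ± 0.24 (SE, edgeR adjusted p = 1), and the sexes overlapped.

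The response to oxygen of Nfe2 was 0.65 lower in females than in males on the log2 scale, with an SE of 0.32 and a range of 2 SE from -1.30 to -0.01 for the difference, and it did not pass the interaction test (edgeR adjusted p = 0.999992). Leaving out 1 library at a time gave -0.91 to -0.40. The interaction of Bach2 was -0.90 ± 0.55 and that of Nfe2l2 -0.32 ± 0.46 (SE), and neither passed (the same adjusted p). The design leaves 2 hyperoxia males, and the wide ranges do not show that the sexes responded alike.

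Most members moved together from library to library. Over the 11 libraries, log2 CPM of Nfe2l1 and Bach1 correlated with Pearson's r = 0.97 and Spearman's rho = 0.94 (permutation test of 100000 draws, p adjusted over 28 pairs = 0.00056 for r and 0.00336 for rho), and r was 0.94 without the 2 libraries farthest from the median. Taking each library's deviation from its group mean, r stayed at 0.97. Nfe2l1 and Nfe2l2 had r = 0.86 and rho = 0.84 (permutation test, adjusted p = 0.00364 for r and 0.0216 for rho), with r = 0.69 without the 2 farthest and 0.89 on the deviations. Nfe2l2 and Bach1 had r = 0.87 and rho = 0.84 (permutation test, adjusted p = 0.00364 for r and 0.0216 for rho), with 0.71 without the 2 farthest and 0.92 on the deviations.

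Library depth and other features of the libraries moved with the same genes. The level of Nfe2l1 correlated with the total count at r = 0.94 and rho = 0.94 (permutation test, p adjusted over 24 relations = 0.0006 for r and 0.00168 for rho, r = 0.90 without the 2 farthest). That of Bach1 did so at r = 0.93 and rho = 0.90 (permutation test, adjusted p = 0.0006 for r and 0.00324 for rho, r = 0.86 without the 2 farthest). Nfe2 with the total count gave r = 0.50 and rho = 0.45 (permutation test, adjusted p = 0.159 for r and 0.219 for rho). The level of Nfe2l2 correlated with the number of identifiers detected at r = -0.73 and rho = -0.80 (permutation test, adjusted p = 0.0271 for r and 0.0221 for rho, r = -0.80 without the 2 farthest). That of Bach1 correlated with the share of counts taken by the top identifier at r = -0.79 and rho = -0.72 (permutation test, adjusted p = 0.0164 for r and 0.045 for rho), with r = -0.52 without the 2 farthest. Of 11245 genes compared, 23.1% had r above 0.85 with Nfe2l1, 23.0% with Bach1, 10.7% with Nfe2l2 and 1.08% with Nfe2. The part of these features in the shared movement was not tested.

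Since the oxygen groups separate the Nfe2 levels, its relation to the other members is given within groups. On deviations from the group means, r between Nfe2 and the other genes was 0.45 for Nfe2l2, 0.47 for Nfe2l1, 0.57 for Bach1, 0.50 for Keap1, 0.41 for Mafk, 0.07 for Mafg and -0.16 for Bach2 over the 11 libraries. The genes whose log2 CPM most resembled that of Nfe2 over the 11 libraries were Bin1 at r = 0.96, Mtfr2 and Ecm1 at 0.94, Endod1 at 0.94 and Trp53i11 and Mcu at 0.93, picked for that likeness and given with no test. Bin1 stood at 30.7 ± 2.86 CPM in hyperoxia (SD, n = 5) and 21.0 ± 2.52 CPM in normoxia (SD, n = 6), and Ecm1 at 13.7 ± 2.82 CPM in hyperoxia and 3.75 ± 0.83 CPM in normoxia. On deviations from the group means the 6 genes had r between 0.61 and 0.73 with Nfe2. The genes most like Nfe2l2 were Gnai3 at r = 0.98, Dse at 0.98 and Oxa1l at 0.97, and they kept 0.97 to 0.99 on the deviations.

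**Figure D4:**
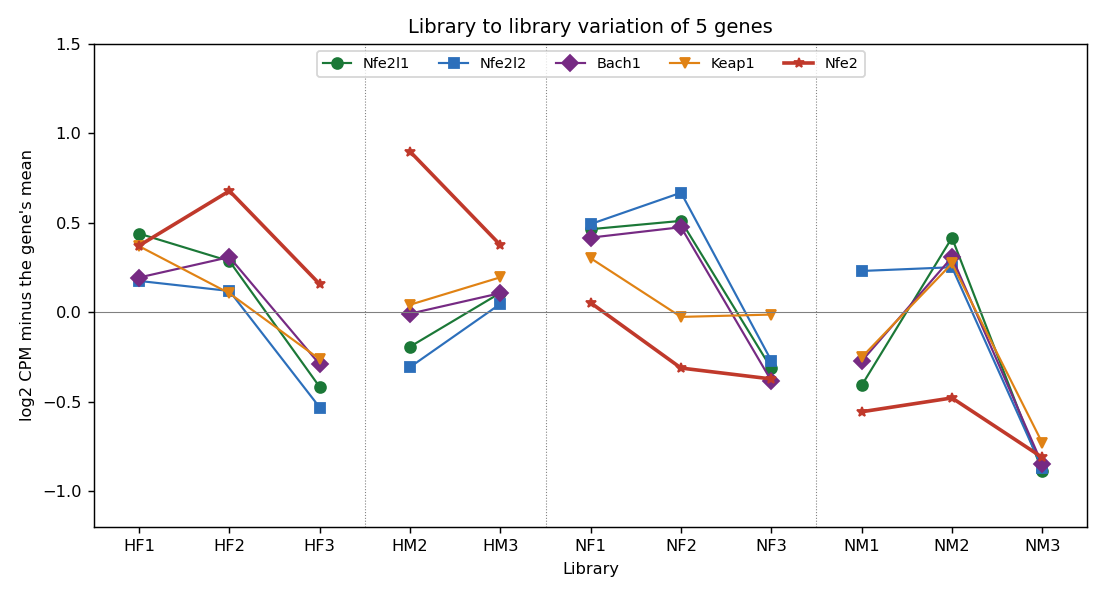
Log2 CPM minus the gene's mean over the 11 libraries (vertical axis) for selected members in every library, by group, with lines joining libraries of 1 group only. Nfe2l1 and Bach1 trace the same pattern (r = 0.97), while Nfe2 is higher in the hyperoxia libraries.

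The other genes of the pathway were taken from 11 lists of 131 genes, of which 117 passed the filter. None of the 117 passed edgeR's quasi-likelihood test between hyperoxia and normoxia averaged over the sexes, and 8 had an unadjusted p under 0.05, 6.84% beside 8.13% of all genes. DESeq2 called 3 of the 117, including Slc40a1 as higher and Maff as lower, beside 446 of all 19948 genes. The count by edgeR was 1 with DESeq2's size factors and 3 with no filter on low counts. No gene of the lists passed in either sex alone by either tool. Leaving out 1 library at a time, edgeR called Slc40a1 without HF1, HF3, NF3 or NM2 (adjusted p from 0.0173 to 0.0499), and Ptgr1 (adjusted p = 0.017) and Mgst2 (adjusted p = 0.0261) without NF3.

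Among the Maf factors that are not members, 3 of 5 were above 0, with a median log2 fold change of 0.26. Maff, the remaining small Maf gene, stood at 41.9, 38.3 and 34.8 CPM in HF1 to HF3 and at 40.6 and 36.9 CPM in HM2 and HM3, against 51.3, 43.6 and 48.0 CPM in NF1 to NF3 and 60.4, 60.8 and 42.5 CPM in NM1 to NM3. All 5 hyperoxia libraries lay below all 6 normoxia libraries. Its log2 fold change was -0.40 ± 0.15 (SE, edgeR adjusted p = 0.396, DESeq2 adjusted p = 0.0466). Mafg and Mafk, the small Maf members, overlapped between the oxygen groups.

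Of the KEAP1-CUL3 ligase and KEAP1 binding proteins, 5 of 8 were above 0, with a median of 0.06, but 4 of 8 with DESeq2's size factors. Palb2, a BRCA2 partner that binds KEAP1, averaged 9.55 ± 0.886 CPM in hyperoxia (SD, n = 5) and 6.57 ± 0.557 CPM in normoxia (SD, n = 6), and the groups did not overlap. Its log2 fold change was 0.51 ± 0.15 (SE, edgeR adjusted p = 0.162). Sqstm1, the autophagy receptor p62 that takes up KEAP1, averaged 261 ± 35.7 CPM in hyperoxia and 349 ± 72.1 CPM in normoxia (SD), at -0.40 ± 0.20 (SE, edgeR adjusted p = 0.653). Averaged over the sexes, the genes of KEAP1-independent NRF2 turnover (7 tested) had a median of 0.01 and the coactivators (8 tested) 0.09. Both lists lay within -0.24 and 0.20 on the log2 scale. By sex, 8 of 8 coactivators were above 0 in males (median 0.32) and 1 of 8 in females (median -0.15). Of the turnover genes, 5 of 7 were above 0 in males (median 0.14) and 1 of 7 in females (median -0.19). No gene of these 2 lists passed the interaction test by edgeR.

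Targets of NRF2 lay on both sides of 0, and none passed by edgeR. Of the glutathione and thioredoxin genes 7 of 15 tested were above 0 (20 listed, median -0.07), of the quinone, drug and aldehyde genes 11 of 14 (median 0.22), and of the NADPH supply genes 3 of 6 (median 0.02), beside 45.9% of all genes above 0. Ptgr1, a reductase of lipid aldehydes, averaged 25.4 ± 3.19 CPM in hyperoxia (SD, n = 5) and 15.9 ± 5.09 CPM in normoxia (SD, n = 6), at 0.69 ± 0.20 (SE, edgeR adjusted p = 0.164). Mgst2, a membrane glutathione transferase, was at 0.71 ± 0.25 (SE, edgeR adjusted p = 0.309), and its relative Mgst1 at -0.40 ± 0.19 (SE, edgeR adjusted p = 0.615). The usual reporter of NRF2, Nqo1, was low, at 1.09 ± 0.345 CPM in hyperoxia and 0.686 ± 0.582 CPM in normoxia (SD). Nqo1 and the next 5 genes were named after their values were seen. Log2 fold changes were 0.15 for Gclc and 0.18 for Gclm, the subunits of the enzyme that limits glutathione synthesis, 0.13 for Txnrd1, -0.12 for Srxn1 and 0.14 for Slc7a11, the cystine carrier.

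Of the haem and iron genes under BACH1 and NRF2, 5 of 10 were above 0 (median -0.08). Slc40a1, the iron exporter ferroportin, averaged 15.7 ± 5.97 CPM in hyperoxia (SD, n = 5) and 8.03 ± 1.56 CPM in normoxia (SD, n = 6), with every hyperoxia library above every normoxia library. Its log2 fold change was 0.95 ± 0.21 (SE), just short of the threshold by edgeR (adjusted p = 0.0504) and called by DESeq2 (adjusted p = 0.00547). Blvra, which turns the haem product biliverdin into bilirubin, was at -0.45 ± 0.19 (SE, edgeR adjusted p = 0.515). Hmox1, the main BACH1 target, named after its values were seen, averaged 128 ± 51.3 CPM in hyperoxia and 177 ± 100 CPM in normoxia (SD) and did not pass (edgeR adjusted p = 0.882).

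Of the proteasome subunits, the targets of NFE2L1, 25 of 31 were below 0, at a median of -0.11 beside -0.03 over all genes, and none passed. Psmb1 was at -0.31 ± 0.21 (SE, edgeR adjusted p = 0.851) and Psmb6 at -0.31 ± 0.19 (SE, edgeR adjusted p = 0.816). The genes that process NFE2L1 had 5 of 7 above 0 (median 0.06), 4 of 7 with DESeq2's size factors. Of the 15 megakaryocyte and platelet genes, some of them NFE2 targets, 7 passed the filter and 2 of these were above 0 (median -0.19). Their summed level was 155 to 197 CPM in hyperoxia and 168 to 232 CPM in normoxia, most of it from Tbxas1, thromboxane synthase, named after its values were seen, at 176 ± 20.9 CPM in hyperoxia (SD, n = 5) and 188 ± 24.95 CPM in normoxia (SD, n = 6). Among them Gp5, a platelet glycoprotein, was at 0.354 ± 0.252 CPM in hyperoxia and 0.672 ± 0.801 CPM in normoxia (SD).

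**Figure D5:**
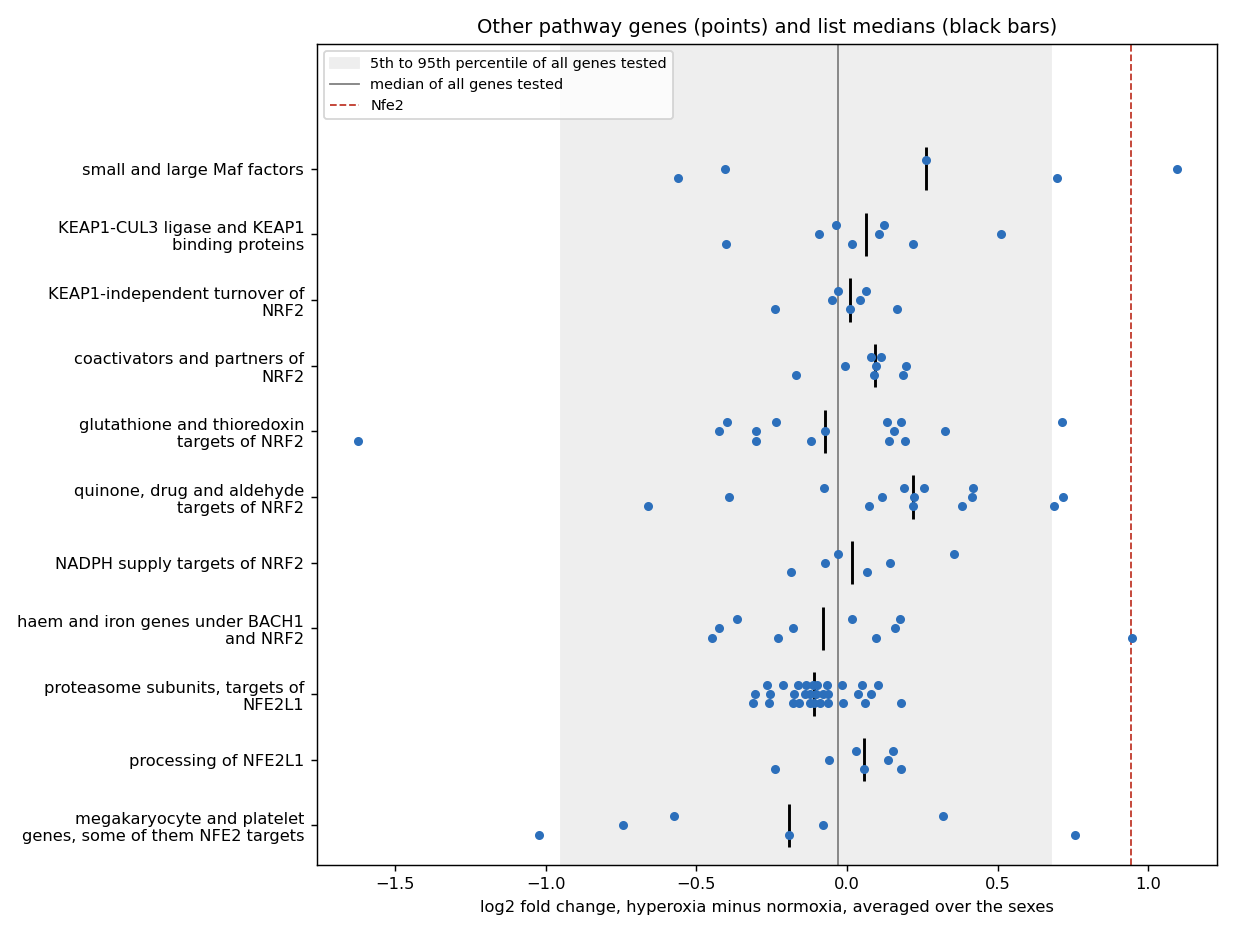
Log2 fold change, hyperoxia minus normoxia averaged over the sexes (horizontal axis), of every other pathway gene tested, by list (points), with the list medians as black bars. The grey band spans the 5th to 95th percentile of all genes tested, from -0.95 to 0.68, the grey line is their median of -0.03 and the dashed line is Nfe2 at 0.94.

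Markers of other cells that could carry Nfe2 were measured beside it. The 8 monocyte markers were all above 0 between hyperoxia and normoxia (median 0.71, none passed), and they summed to 1138 to 2280 CPM in hyperoxia and 582 to 2336 CPM in normoxia. By sex the monocyte sum was 1138 to 2253 CPM in hyperoxia females and 1098 to 2336 CPM in normoxia females. These ranges overlap, while the Nfe2 levels of the females do not. The monocyte sum was 1436 to 2280 CPM in hyperoxia males and 582 to 1309 CPM in normoxia males. These ranges do not overlap, and neither do the Nfe2 levels of the males. A sum weighs the most abundant markers most. Counted marker by marker, 8 of 8 were above 0 in females (median 0.82) and 7 of 8 in males (median 0.59). None of them passed in either sex by edgeR. Neutrophil markers summed to 15.5 to 28.4 CPM in hyperoxia and 8.04 to 24.0 CPM in normoxia. Ly6g, their defining surface marker, was at 0 in every library. Of the 7 neutrophil markers tested, 4 were above 0 and 3 below, and none passed. S100a8, of smallest p among them, averaged 8.67 ± 1.93 CPM in hyperoxia and 5.05 ± 2.07 CPM in normoxia (SD, edgeR adjusted p = 0.251). Of the 9 erythroid markers 8 were below 0 (median -1.26, none passed), at 55.8 to 308 CPM in hyperoxia and 103 to 1219 CPM in normoxia. Markers of basophils, mast cells and eosinophils summed to 1.76 to 4.22 CPM in hyperoxia and 1.17 to 7.22 CPM in normoxia. Of the 17 alveolar macrophage markers 14 were below 0 (median -0.28). By edgeR 4 of the 17 were called lower, beside 33 of all 19948 genes. By DESeq2 6 of the 17 were called lower, beside 153 of all 19948 genes. Among the 4 was Cidec, a lipid droplet protein, at -1.35 ± 0.22 (SE, edgeR adjusted p = 0.00901). The part of these cells in the Nfe2 level was not tested.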

How the data were processed

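Bulk RNA-seq was measured in 11 libraries of sorted mouse alveolar macrophages. The deposited table holds raw whole-number counts, 1 per library and Ensembl gene. Libraries came, per the labels' protocols, from a low-input SMART-Seq kit, 8-base unique molecular identifiers and the adapter were trimmed, and some libraries were purified of short fragments and resequenced. The submitters' processing notes list mm39, DESeq2 1.42, R 4.3.2, Salmon 1.10.1, STAR 2.7.9 and Trim Galore 0.6.7. The sources used here do not give what each tool did, the annotation release, the strand setting or any use of the identifiers to remove duplicates.

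Symbols matched 51884 of 57180 identifiers. In R 4.3.3, edgeR 4.0.16 kept 19948 genes (minimum count 10, minimum total 15), scaled libraries by TMM and fitted 4 group means with its robust quasi-likelihood method. Adjusted p-values are Benjamini-Hochberg values over all genes tested, with a threshold of 0.05. Correlations across libraries were tested with 100000 permutations. Levels per kilobase use GENCODE M21 exon lengths of another build, with no coordinates taken. Steps were tested on simulated data. Floors cover counting error only.

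The 9 members and the gene lists were chosen with earlier results of these data known. In each pathway list the genes with the smallest p in each direction were named, beside members and their most similar genes. Skp1, a listed gene, matched no symbol. Alternatives were DESeq2 1.42.0 as test and its size factors, other filters, no robust estimation, a replicate block, each library left out in turn, and 4 libraries with most identifiers left out.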

Additional observations from a re-analysis of the deposited data

How the results depend on the processing

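Nfe2 kept a log2 fold change between hyperoxia and normoxia of 0.81 to 1.07 over all settings. Depth limits Nfe2l3 and Bach2 most. Whether replicate numbers pair the libraries was left undecided. Of 15 same-numbered pairs, 7 had deviations correlated above 0.1, and the pairs ranged from -0.62 to 0.85. Of the 11 libraries, 6 correlated best with their own number. HM2 and HM3 are the only hyperoxia males, so their deviations from the group mean mirror each other. Their correlations with any other library therefore have opposite signs by construction, and pairs that include them cannot decide the question.

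Between hyperoxia and normoxia over both sexes, 141 genes became 302 with no filter, 288 with a stricter filter, 256 with a replicate block, 23 without the 4 libraries with most identifiers and 446 by DESeq2. In males, 8 became 83, 13, 21, 16 and 91 in the same order. In females, 8 became 96 with no filter, 23 with the block, 2 without the 4 libraries and 96 by DESeq2. For females minus males, 5 became 62 with no filter, 9 with the block and 35 by DESeq2 averaged over oxygen. It became 30 with no filter, 11 without the 4 libraries and 11 by DESeq2 in normoxia, and 40 with no filter, 10 with the block and 23 by DESeq2 in hyperoxia. The interaction count of 0 became 6 with no filter, 1 without robust estimation, 1 without the 4 libraries and 3 by DESeq2. The count of pathway genes became 1 with DESeq2's size factors, 3 with no filter, 1 with a stricter filter, 1 with the block and 3 by DESeq2.

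Leaving out 1 library at a time gave 36 to 195 genes over both sexes, with fewest, 36 and 48, when HM3 or HM2 was the one left out, then 63 for HF2, 65 for NF1 and 80 for NF2. It gave 0 to 19 in males, 0 to 24 in females, 5 to 14 for sex over both oxygen groups, 5 to 12 in normoxia, 5 to 8 in hyperoxia, 0 to 1 for the interaction and 0 to 3 pathway genes.

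The signs below turned with the setting, and the cause was not tested. With the block, the female minus male log2 difference in hyperoxia was -0.00289 for Nfe2l1, -0.16 for Nfe2l2 and -0.086 for Bach1, and in normoxia 0.10 for Nfe2l3. Without the 4 libraries, Nfe2l3 was at -1.17 for sex over both oxygen groups, 0.42 in normoxia, -2.76 in hyperoxia and -3.18 for the interaction. Keap1 was then at 0.24 for sex in hyperoxia and 0.13 for the interaction, Nfe2l1 at 0.044 for the interaction and Cul1 at -0.00825 between hyperoxia and normoxia. With 1 library left out, the sex difference in hyperoxia ranged from -0.079 to 0.20 for Bach1, -0.19 to 0.12 for Keap1, -0.48 to 0.035 for Nfe2, -0.10 to 0.27 for Nfe2l2 and -0.070 to 1.23 for Nfe2l3. Over both oxygen groups it ranged from -0.027 to 0.23 for Nfe2 and -0.13 to 0.77 for Nfe2l3, and in normoxia from -0.56 to 0.83 for Nfe2l3. The interaction ranged from -0.20 to 0.29 for Mafg and -0.11 to 1.41 for Nfe2l3.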
